A study of Mus musculus with 6 samples.

Results

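The genes described here encode the immunoglobulin G receptors, TREM receptors and signalling proteins through which macrophages read antibody-coated particles and lipid or damage signals. The 10 genes were chosen by family: the Fc gamma receptors Fcgr1, Fcgr2b, Fcgr3 and Fcgr4, the TREM receptors Trem1 and Trem2, the adaptors Fcer1g and Tyrobp, the kinase Syk and the phosphatase Inpp5d. All 10 had exactly 1 probe set with their symbol alone, out of 18820 genes tested, and no probe set that named a member together with another gene. RNA of bone marrow-derived macrophages was hybridised to Affymetrix arrays, 1 array per sample, for 3 GPS2KO samples and 3 wild-type (WT) samples. The GPS2KO group carries a knockout of Gps2, whose product is part of the co-repressor complex that holds HDAC3. The labels write it as KO or MKO and give neither the deleted part of the gene, nor a Cre driver, nor the strain. In both groups the donors were male mice aged about 12 to 16 weeks, and marrow cells were grown for 7 days in medium with 30% supernatant of L929 fibroblasts, a source of macrophage growth factor. No stimulus was given to either group. Whether the 6 samples came from 6 animals is not stated, so the p-values cover the spread among these samples, part of which may be technical.

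Activating Fc receptors bind immune complexes and carry no signalling motif that works alone. They pair with the adaptor encoded by Fcer1g, while TREM receptors pair with the adaptor encoded by Tyrobp (DAP12). Both adaptors hold an immunoreceptor tyrosine-based activation motif (ITAM), which recruits the kinase Syk once Src-family kinases have phosphorylated it. The receptor encoded by Fcgr2b holds an inhibitory motif (ITIM) instead and recruits the lipid phosphatase SHIP, the product of Inpp5d, which opposes the same pathway.

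In GPS2KO macrophages, 3 of the 10 genes rose and 0 fell. Trem1 rose 1.35-fold, the activating receptor Fcgr3 rose 1.30-fold and the inhibitory receptor Fcgr2b rose 1.15-fold. Fcgr4, another activating receptor, had the opposite sign and a mean signal at 84.6% of WT, without passing the test. The shared signalling genes Fcer1g, Tyrobp, Syk and Inpp5d and the receptor Trem2 differed by at most 0.10 on the log2 scale, and none of them passed. Each gene was tested with limma across all 18820 genes, and passed where its p-value, adjusted over all of them by Benjamini-Hochberg, lay under 0.05. By that rule 6.72% of all tested genes passed, 2.9% as rises and 3.83% as falls. At an unadjusted p under 0.05, 5 members were higher in GPS2KO, as were 8.88% of all tested genes, and 1, Fcgr4, was lower, as were 11.9%. The median change of the members was 0.10, beside -0.008 over all tested genes. Values are log2 intensities and changes are GPS2KO minus WT, with limma's standard error (SE).

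After normalization the arrays were alike. Array medians ran from 5.57 to 5.60 over all probe sets, which the authors' normalization to a common distribution makes nearly equal by design. Pearson correlations across genes, which are not independent replicates, were at least 0.9989 within groups and at most 0.9981 between groups. Gps2 had 10.289, 10.164 and 10.187 on the GPS2KO arrays, against 10.943, 10.931 and 11.002 on the WT arrays, and fell by 0.75 (SE 0.0472, adjusted p = 0.000256, limma), to 59.7% of the WT signal. An exact 2-sided permutation test of its group means gave p = 0.1, the smallest that 20 arrangements allow. Which part of the transcript its probes read is not given in the sources used here. All 8 macrophage markers tested, among them Csf1r, Cd68 and Adgre1, lay above 5.49, the 40th percentile of gene means that serves here as the limit of dim signals, and so did all 10 members.

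**Figure D1:**
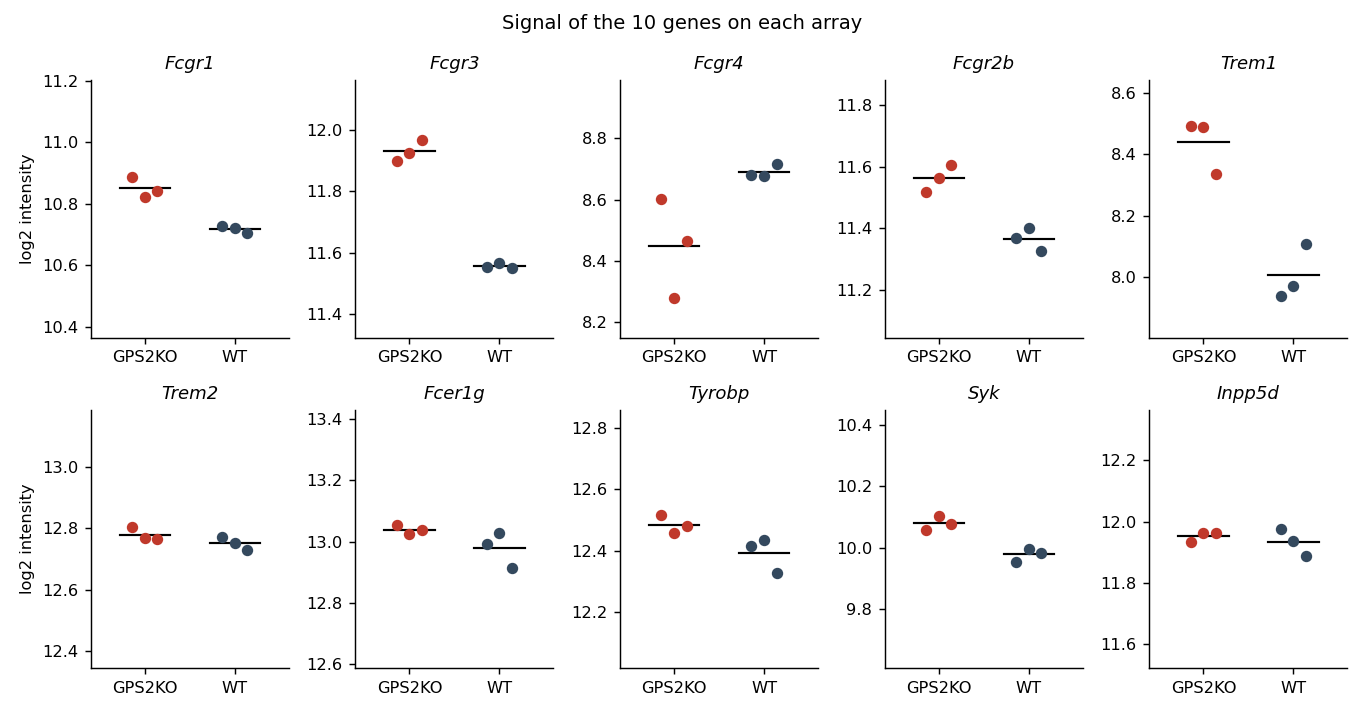
Log2 intensity of the 10 genes on each array, GPS2KO (red) left of WT (blue), with 1 point per array and a line at the mean of 3. Every panel spans the same range of log2 units around its own centre, so distances compare across panels while heights of different genes do not; Fcgr3 and Trem1 show the widest upward gaps and Fcgr4 the only downward one.

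Among the activating Fc receptors, Fcgr3 had the most separated values. Fcgr3, the low-affinity receptor that also arms natural killer cells, had 11.900, 11.925 and 11.966 on the GPS2KO arrays, against 11.553, 11.567 and 11.550 on the WT arrays. All 3 GPS2KO arrays lay above all 3 WT arrays, and the gap between the nearest arrays was several times the range within either group. The means were 11.93 ± 0.0333 in GPS2KO and 11.56 ± 0.00892 in WT (SD, n = 3 each). The rise of Fcgr3 was 0.37, with an SE of 0.0375 and a 95% confidence interval of 0.29 to 0.46 (limma, adjusted p = 0.0014). Its absolute change exceeded that of 97.7% of all tested genes, and it stood at rank 185 of the 545 rises.

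Fcgr1, the high-affinity receptor for monomeric immunoglobulin G, had 10.887, 10.823 and 10.840 on the GPS2KO arrays, against 10.726, 10.721 and 10.706 on the WT arrays. The groups did not overlap, yet the difference of 0.13 (SE 0.0375, 95% confidence interval 0.04 to 0.22) did not pass (adjusted p = 0.0851, limma). It did pass when the variance was modelled as a trend on signal level (adjusted p = 0.0093) and when the model was refitted and adjusted without dim genes (adjusted p = 0.0311).

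Fcgr4, the activating receptor that is the mouse counterpart of human FCGR3A, had the opposite sign. Its values were 8.602, 8.280 and 8.466 on the GPS2KO arrays, against 8.679, 8.678 and 8.715 on the WT arrays. All 3 GPS2KO arrays lay below the WT arrays, but they also lay far apart from each other: the SD was 0.161 in GPS2KO and 0.0211 in WT (n = 3 each). The difference of -0.24 (SE 0.0765, 95% confidence interval -0.42 to -0.06) did not pass (adjusted p = 0.119, limma). It was -0.32 without GPS2KO replicate 1, where it passed (adjusted p = 0.046), and -0.16 without GPS2KO replicate 2 (adjusted p = 0.212). With a variance trend, Fcgr4 also passed (adjusted p = 0.0366).

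Fcgr2b, the inhibitory receptor of the family, had 11.517, 11.565 and 11.605 on the GPS2KO arrays, against 11.367, 11.401 and 11.326 on the WT arrays. The groups did not overlap. Its rise was 0.20, with an SE of 0.0422 and a 95% confidence interval of 0.10 to 0.30 (limma, adjusted p = 0.0339), at rank 480 of the 545 rises. This call ended when any 1 of the 6 arrays was left out, at adjusted p from 0.0563 to 0.117, while the change itself stayed between 0.18 and 0.22. The extracellular parts of Fcgr2b and Fcgr3 are nearly identical in sequence in the mouse, so probes there could read both transcripts; the probe sequences were not used here, and the 2 signals are uncertain to that degree.

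**Figure D2:**
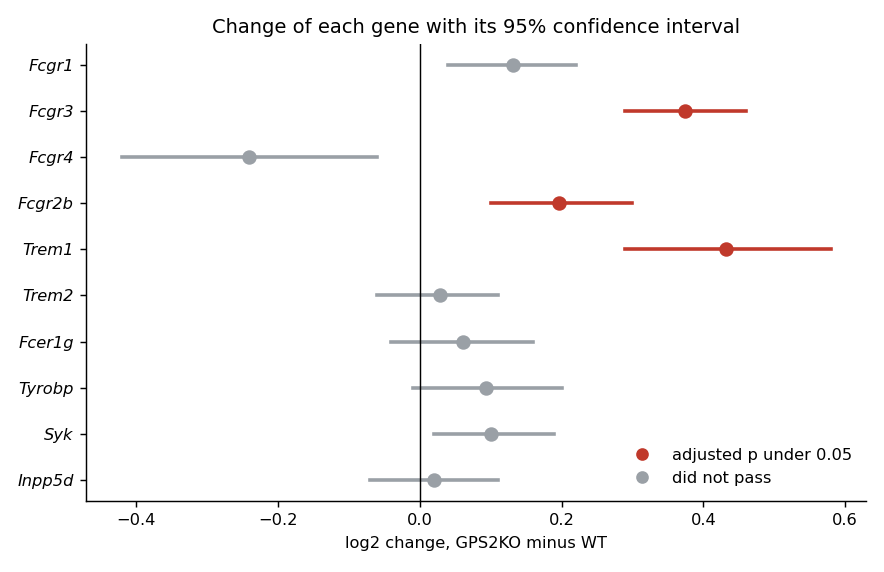
Log2 change of each of the 10 genes, GPS2KO minus WT, as a point with its 95% confidence interval from limma, in red where adjusted p lay under 0.05 and in grey where it did not. Fcgr3, Fcgr2b and Trem1 lie right of 0, Fcgr4 lies left of it, and the intervals of Trem2, Fcer1g, Tyrobp and Inpp5d contain 0.

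Changes within pairs of genes were also compared on each array, as the difference of their log2 values, in 6 pairs. The change of Fcgr4 was lower than that of Fcgr2b by 0.44, with no overlap between GPS2KO and WT arrays. The change of Fcgr3 exceeded that of Fcgr2b by 0.18, again with no overlap, and the change of Fcgr1 differed from that of Fcgr2b by -0.07 with overlap. The change of Trem2 was -0.40 relative to that of Trem1, without overlap. Between the adaptors the difference was -0.03, Fcer1g relative to Tyrobp, and Syk exceeded Inpp5d by 0.08. In exact 2-sided permutation tests p was 0.3 for Fcgr1 against Fcgr2b and 0.1 for each of the other 5 pairs, adjusted to 0.3 and 0.12 over the 6 pairs, and 0.1 is the smallest p that 3 against 3 arrays allow.

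Of the TREM receptors, Trem1 rose and Trem2 did not pass. TREM-1, which amplifies inflammatory responses of neutrophils and monocytes, is the product of Trem1. The gene had 8.493, 8.488 and 8.338 on the GPS2KO arrays, against 7.940, 7.973 and 8.108 on the WT arrays. The groups did not overlap, although GPS2KO replicate 3 and WT replicate 3 each lay nearer to the other group than their companions. The means were 8.44 ± 0.0881 in GPS2KO and 8.01 ± 0.0891 in WT (SD, n = 3 each). The rise of Trem1 was 0.43, with an SE of 0.0629 and a 95% confidence interval of 0.29 to 0.58 (limma, adjusted p = 0.0071). It had the largest absolute change of the 10 genes and stood at rank 140 of all 545 rises.

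Trem2 encodes a receptor for lipids and apolipoproteins that marks lipid-associated macrophages and microglia. It had 12.806, 12.768 and 12.765 on the GPS2KO arrays, against 12.772, 12.752 and 12.731 on the WT arrays. The groups overlapped, the difference was 0.03 (SE 0.0368, adjusted p = 0.723, limma), and its 95% confidence interval ran from -0.06 to 0.11. That interval rests on the spread among these samples, part of which may be technical.

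The shared adaptors and enzymes had high signals and narrow intervals. Fcer1g, the adaptor of the activating Fc receptors, had 13.055, 13.024 and 13.038 on the GPS2KO arrays, against 12.991, 13.028 and 12.915 on the WT arrays. These overlapped, with a difference of 0.06 (SE 0.0427, 95% confidence interval -0.04 to 0.16, adjusted p = 0.481, limma). Tyrobp, the adaptor of the TREM receptors, had 12.517, 12.457 and 12.480 on the GPS2KO arrays, against 12.414, 12.433 and 12.327 on the WT arrays. Its groups did not overlap, and its difference of 0.09 (SE 0.0437, 95% confidence interval -0.01 to 0.20) did not pass (adjusted p = 0.285, limma).

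Syk, the kinase that docks on phosphorylated ITAMs, had 10.058, 10.102 and 10.078 on the GPS2KO arrays, against 9.955, 9.997 and 9.982 on the WT arrays. The groups were separate by a narrow margin, and the difference of 0.10 (SE 0.0369, 95% confidence interval 0.02 to 0.19) did not pass (adjusted p = 0.169, limma). Inpp5d, which encodes SHIP, had 11.934, 11.964 and 11.963 on the GPS2KO arrays, against 11.975, 11.936 and 11.889 on the WT arrays. The groups overlapped, and the difference was 0.02 (SE 0.0397, 95% confidence interval -0.07 to 0.11, adjusted p = 0.828, limma). Its sign turned after median centring (-0.0035) and without WT replicate 3 (-0.0018), so no direction can be given.

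Counted over the family, 6 of the 10 genes had all GPS2KO arrays above all WT arrays, as did 11.9% of all tested genes, and 1 of 10 had them all below, as did 15.2%. Without overlap in either direction were 27.1% of all tested genes.

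**Figure D3:**
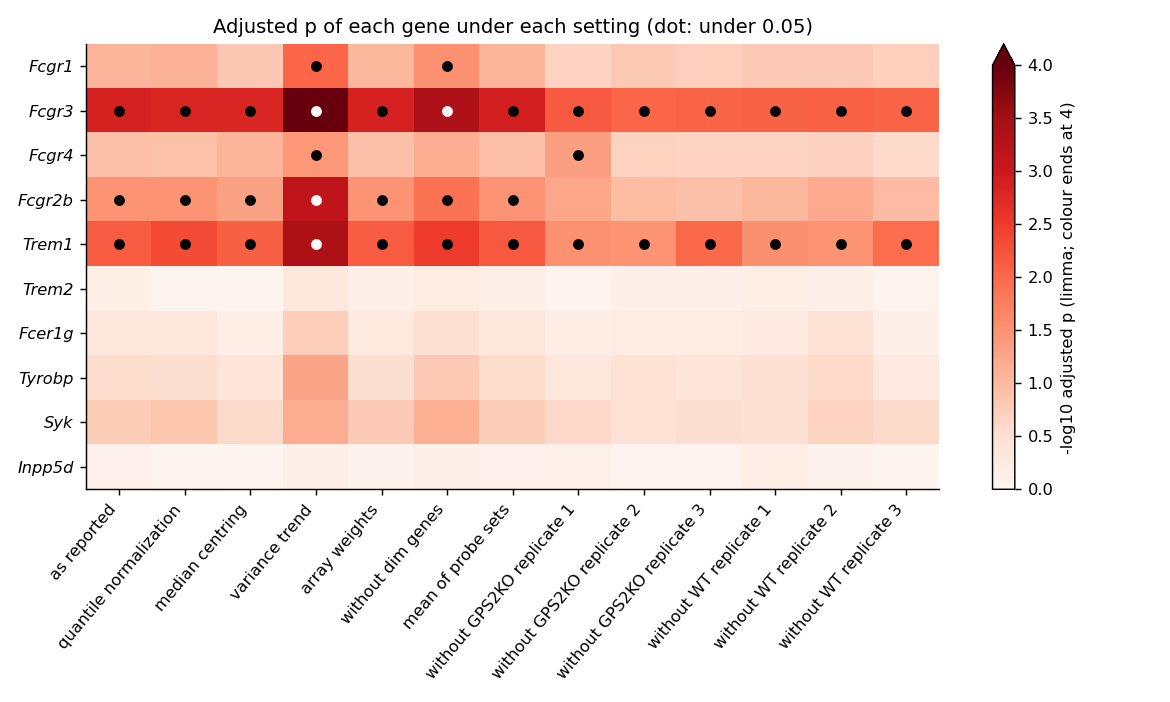
Limma adjusted p of each of the 10 genes (rows) in the reported fit and under other settings (columns), as -log10 in shades of red, with a dot where adjusted p lay under 0.05. Fcgr3 and Trem1 carry a dot in every column, Fcgr2b loses its dot whenever 1 array is left out, and Trem2, Fcer1g, Tyrobp, Syk and Inpp5d carry none.

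In the RefSeq order of genes, 3 Fc receptor genes are direct neighbours among the tested genes of chromosome 1: Fcgr2b, then Fcgr4, then Fcgr3, with Fcer1g farther along. The middle gene thus had a lower mean in GPS2KO while both outer genes rose. Of 19 tested genes from 5 before Fcgr2b to 5 after Fcer1g, 2 rose, 3 fell and 14 did not pass. The 2 rises were the members Fcgr2b and Fcgr3, and 6.72% of all tested genes passed. The falls were Olfml2b (-0.25, adjusted p = 0.0178), the stress sensor of the endoplasmic reticulum Atf6 (-0.33, adjusted p = 0.00366) and Pcp4l1 (-0.43, adjusted p = 0.00304), by limma. The Olfml2b call ended without GPS2KO replicate 2 or any 1 of the WT arrays, at adjusted p up to 0.0651.

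On chromosome 17 the tested TREM genes lie in the order Trem1, Trem3, Treml4, Treml2, Trem2 and Treml1. Of the 4 TREM genes that are no members, 0 rose and 0 fell. Their differences ran from -0.17 to -0.01, with the smallest p for Treml4 (-0.16, adjusted p = 0.072, limma), which passed after median centring (adjusted p = 0.0478) and without dim genes (adjusted p = 0.0294). Treml4 was also the only 1 of the 4 with an unadjusted p under 0.05. Of 16 tested genes from 5 before Trem1 to 5 after Trem2, 3 rose and 1 fell, beside 2.9% and 3.83% of all tested genes. Besides Trem1 the rises were those of A530064D06Rik, next to Trem1, by 0.90 (SE 0.0626, adjusted p = 0.000323, limma), and of B430306N03Rik, next to Trem2, by 0.69 (SE 0.0395, adjusted p = 0.000189, limma). These 2 gene models and the fallen Foxp4, a forkhead transcription factor (-0.36, adjusted p = 0.0018, limma), were named after their values were seen, as were the chromosome 1 neighbours.

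**Figure D4:**
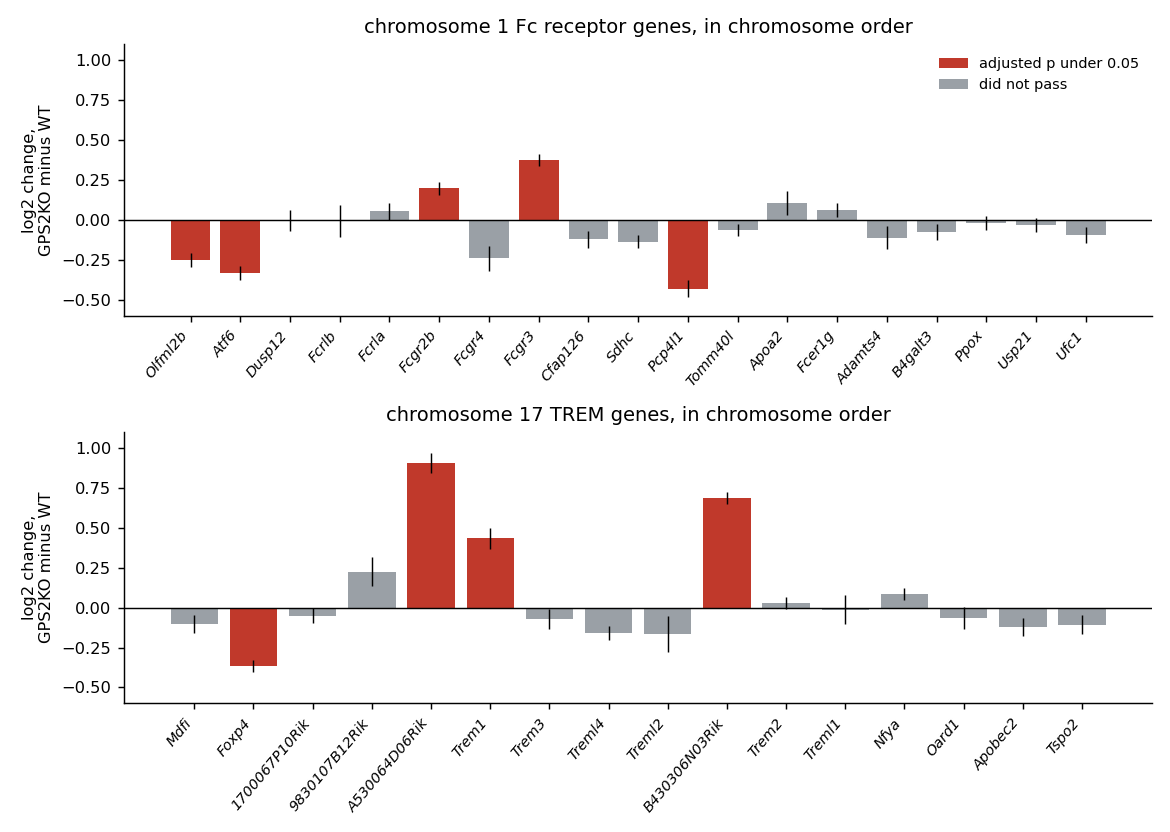
Log2 change, GPS2KO minus WT, of tested genes in their RefSeq order around the chromosome 1 Fc receptor genes (top) and the chromosome 17 TREM genes (bottom). Bars are limma estimates, whiskers are 1 SE, and red marks adjusted p under 0.05. Fcgr4 points down between Fcgr2b and Fcgr3, and Trem1, A530064D06Rik and B430306N03Rik point up among TREM genes near 0.

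Letters upstream of the start sites were read from RefSeq promoters (GRCm38.p6), which held 9 of the 10 genes in 11 windows; Tyrobp is named only. The 250 bases before each start were searched on both strands for TTCNNNGAA, the form of a gamma-activated site, for a pair of GAAA blocks 2 bases apart, the core of an interferon-stimulated response element, and for GAGGAA, a core of sites of the myeloid factor PU.1. Windows are shown for the Fc receptors, among which Fcgr4 had the opposite sign without passing, and for Trem1, whose change was the largest. Capitals mark the matches, and each line reads 5′ to 3′ on the gene's own strand.

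Fcgr1, chr3:96293970-96294219, minus strand: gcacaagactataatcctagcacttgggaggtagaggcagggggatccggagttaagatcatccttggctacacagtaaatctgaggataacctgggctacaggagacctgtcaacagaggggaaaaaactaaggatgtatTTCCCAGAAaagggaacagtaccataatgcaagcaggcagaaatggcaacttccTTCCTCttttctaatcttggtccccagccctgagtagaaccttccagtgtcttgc
Fcgr3, chr1:171059404-171059653, minus strand: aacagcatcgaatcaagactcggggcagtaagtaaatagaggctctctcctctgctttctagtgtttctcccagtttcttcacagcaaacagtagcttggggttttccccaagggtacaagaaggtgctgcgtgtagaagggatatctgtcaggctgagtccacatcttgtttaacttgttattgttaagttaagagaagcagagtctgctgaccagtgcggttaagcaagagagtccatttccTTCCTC
Fcgr4, chr1:171018676-171018925, plus strand: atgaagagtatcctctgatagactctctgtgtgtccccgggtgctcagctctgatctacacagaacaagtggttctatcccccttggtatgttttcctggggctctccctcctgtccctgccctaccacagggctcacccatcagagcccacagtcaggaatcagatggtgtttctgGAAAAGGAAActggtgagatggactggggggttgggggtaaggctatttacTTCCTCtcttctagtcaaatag
Fcgr2b, chr1:170976072-170976321, minus strand: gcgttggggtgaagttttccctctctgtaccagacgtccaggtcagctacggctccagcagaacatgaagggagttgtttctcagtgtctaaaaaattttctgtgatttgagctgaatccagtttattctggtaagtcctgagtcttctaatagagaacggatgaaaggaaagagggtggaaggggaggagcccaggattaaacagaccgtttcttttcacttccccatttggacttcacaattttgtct
Trem1, chr17:48232489-48232738, plus strand: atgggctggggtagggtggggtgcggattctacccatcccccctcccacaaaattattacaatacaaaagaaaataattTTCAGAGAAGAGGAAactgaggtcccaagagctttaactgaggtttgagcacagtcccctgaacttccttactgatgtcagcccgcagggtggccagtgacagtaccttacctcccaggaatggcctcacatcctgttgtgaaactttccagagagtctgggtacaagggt

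The PU.1 core, on either strand, was before a start of 7 of the 9 genes and of 25.9% of 27025 genes with windows, counting a gene once where any of its windows held it. It ended 49 bases before the start in Fcgr1, directly at the first of the listed starts in Fcgr3, which is 9 bases before the other, 16 bases before it in Fcgr4 and 156 bases before it in Trem1. The Fcgr2b window held 0 matches of any of the 3 forms. TTCNNNGAA was in the windows of Fcgr1, as TTCCCAGAA ending 100 bases before the start, and of Trem1, as TTCAGAGAA directly next to the PU.1 core, beside 8.13% of genes with windows. The paired GAAA blocks were in the Fcgr4 window and in no other member's, as GAAAAGGAAA ending 63 bases before the start, beside 3.46% of genes with windows. These are matches of letters, and no binding was measured.

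The surrounding pathway was described with 9 lists of genes, of which 114 distinct genes were tested. Each list is given by its counts and its median change, which stand beside 6.72% passed and a median of -0.008 over all tested genes. Of 13 tested receptors that signal through Tyrobp or Fcer1g, apart from the members, 3 rose, 1 fell and 9 did not pass, with a median of 0.06. A pair of lectin receptors that both couple to Fcer1g changed in opposite directions. Clec4e, which encodes the glycolipid receptor Mincle, fell by 1.05 (SE 0.0647, adjusted p = 0.000227, limma), with means of 9.96 in GPS2KO and 11.01 in WT. Clec4n, which encodes Dectin-2, a receptor for fungal mannans, rose by 0.96 (SE 0.0729, adjusted p = 0.000458, limma), with means of 9.15 in GPS2KO and 8.19 in WT. The activating receptors Cd200r4 and Cd300ld rose by 0.36 and 0.30 (adjusted p = 0.00313 and 0.00338, limma). All 4 calls held whichever array was left out.

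Of 8 tested kinases of the Src and Tec families, 1 fell, 1 rose and 6 did not pass (median 0.03). Fgr, a Src-family kinase of myeloid cells, fell by 0.87 (SE 0.0609, adjusted p = 0.000336, limma), to 54.9% of the WT signal. Tec rose by 0.24 (adjusted p = 0.0123, limma), a call that ended without GPS2KO replicate 2 or 3, at adjusted p up to 0.0541.

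Of 29 genes listed as adaptors and effectors downstream of Syk, 2 rose, 2 fell and 25 did not pass (median -0.03). Whether each of them, Pik3r5 among them, acts downstream of Syk in these cells was not tested. The docking adaptor Gab3 rose by 0.54 (adjusted p = 0.000479, limma) and the guanine nucleotide exchange factor Vav3 by 0.37 (adjusted p = 0.00368, limma). Pik3r5, a regulatory subunit of phosphoinositide 3-kinase gamma, fell by 0.34 (adjusted p = 0.00578, limma). The catalytic subunit Pik3cb fell by 0.18 (adjusted p = 0.041, limma), which no longer passed without any 1 of the 6 arrays, at adjusted p up to 0.123.

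Genes listed as restraints on the pathway moved both ways. Of 16 tested genes listed as phosphatases and other brakes, 4 fell, 2 rose and 10 did not pass (median -0.06). Whether each of them restrains the pathway in these cells was not tested. The ubiquitin ligase Cblb rose by 0.37 (adjusted p = 0.00181, limma). The phosphatase Ptpn22 fell by 0.37 (adjusted p = 0.00198, limma), the adaptor Sla by 0.31 (adjusted p = 0.00495, limma) and Ptpn6, which encodes the ITIM-binding phosphatase SHP-1, by 0.24 (adjusted p = 0.0102, limma). The docking proteins Dok2 (0.25, adjusted p = 0.0161) and Dok3 (-0.18, adjusted p = 0.0465), named after their values were seen, completed the 6 calls. The call of Dok2 ended without GPS2KO replicates 1 or 3 or WT replicates 2 or 3, and that of Dok3 without any 1 of the arrays, at adjusted p up to 0.0669 and 0.132.

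The list compiled as other receptors with ITIMs held 14 tested genes: 4 rose, 1 fell and 9 did not pass (median 0.08). Whether each mouse protein on it, that of Cd33 among them, holds an ITIM or inhibits the pathway was not tested. Siglece, a receptor for sialic acids, fell by 0.90 (SE 0.0804, adjusted p = 0.000838, limma). The sialic acid receptors Cd33 and Cd22 rose by 0.30 and 0.32 (adjusted p = 0.00584 and 0.0104, limma) and Cd300lf by 0.34 (adjusted p = 0.00914, limma). Lilrb4a, named after its value was seen, rose by 0.20 (adjusted p = 0.0225, limma), and kept its call only where GPS2KO replicate 2 was the array left out, with adjusted p otherwise as high as 0.0875.

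**Figure D5:**
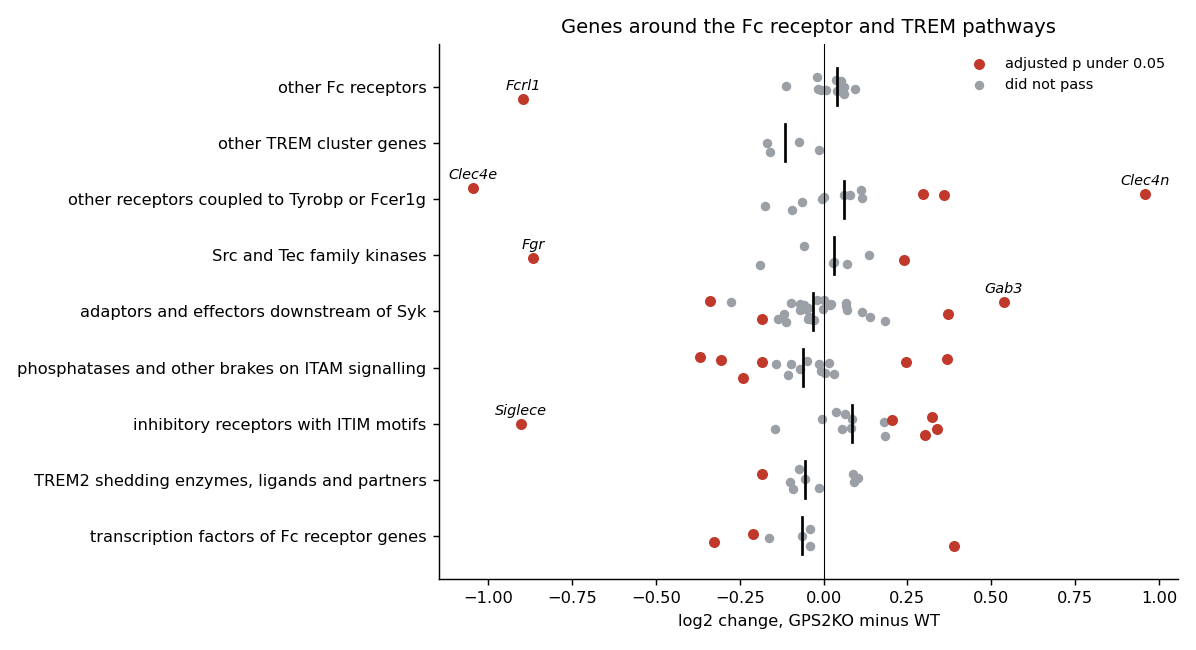
Log2 change, GPS2KO minus WT, of each tested gene in 9 lists around the Fc receptor and TREM pathways, red where limma's adjusted p lay under 0.05 and grey where it did not, with a black bar at each list's median. The medians lie between -0.12 and 0.08 while Clec4e, Fgr, Fcrl1 and Siglece lie far left and Clec4n and Gab3 far right; vertical position within a list has no meaning.

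Among 14 other Fc receptor genes, 0 rose, 1 fell and 13 did not pass (median 0.04), and 9 of them were dim. The fall was that of Fcrl1, an Fc receptor-like gene of B cells, by 0.90 (SE 0.0748, adjusted p = 0.000637, limma), with means of 6.79 in GPS2KO and 7.69 in WT. Of 9 tested genes that cleave, bind or partner TREM2, 0 rose, 1 fell and 8 did not pass (median -0.06). At an unadjusted p under 0.05, 1 was higher and 2 were lower. The fall was that of the protease Adam17, which sheds TREM2 from the cell surface (-0.18, adjusted p = 0.0435, limma). It kept its call only where WT replicate 3 was the array left out, with adjusted p otherwise as high as 0.132.

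Of 7 tested transcription factors known to act on Fc receptor genes, 2 fell, 1 rose and 4 did not pass (median -0.06). Irf1 fell by 0.33 (adjusted p = 0.00953, limma), Irf9 by 0.21 (adjusted p = 0.0165, limma), and the myeloid factor Cebpa rose by 0.39 (adjusted p = 0.00354, limma). The Irf9 call ended without any 1 of the GPS2KO arrays or WT replicate 1, at adjusted p up to 0.0695.

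Other cells that use these receptors were checked by their markers, since in bulk RNA fewer cells of a type and less RNA per cell cannot be told apart. Natural killer cells express Fcgr3, Tyrobp and Fcer1g: of their 7 tested markers 0 passed, all 7 were dim, and the mean over the markers ran from 4.22 to 4.26 on GPS2KO arrays and from 4.22 to 4.28 on WT arrays. Of 9 markers of mast cells and basophils, which use Fcer1g, 0 passed and 7 were dim, and the mean ran from 4.70 to 4.73 in both groups. At an unadjusted p under 0.05 there were 0 markers in either list. Neutrophils express Trem1 and Fcgr4. Of their 9 tested markers 1 rose, the granule gene Ngp (0.46, adjusted p = 0.0151, limma), and 7 were dim, among them Mpo, Elane and Cxcr2. The mean of the 9 ran from 4.94 to 5.03 on GPS2KO arrays and from 4.88 to 4.95 on WT arrays, and its part in the rise of Trem1 was not tested. Ngp lost its call without GPS2KO replicates 1 or 2 or WT replicates 2 or 3, at adjusted p up to 0.0617.

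B cells express Fcgr2b and Fcrl1. Of their 7 tested markers 1 fell, Cd79b (-0.46, adjusted p = 0.00373, limma), and 5 were dim, Cd79a, Ms4a1 and Pax5 among them. Of the 7, 0 were higher and 2 lower at an unadjusted p under 0.05, beside 8.88% and 11.9% of all tested genes. The 2 were Cd79b and Ebf1 (-0.20, adjusted p = 0.0542, limma), which was named after its value was seen. The mean of the 7 ran from 5.26 to 5.29 on GPS2KO arrays and from 5.34 to 5.36 on WT arrays, while Fcgr2b rose. Among 6 T cell markers Cd4 rose (0.43, adjusted p = 0.00142) and Cd5 fell (-0.44, adjusted p = 0.024), and the Cd3 genes were dim. Of 8 dendritic cell markers Itgax alone passed, with a 2-fold rise (adjusted p = 0.00132). Of 5 markers of megakaryocytes and platelets Pf4 rose (0.22, adjusted p = 0.0236) and Ppbp fell (-0.64, adjusted p = 0.0196). Of 8 stromal markers Dcn rose (0.30, adjusted p = 0.0334), Col1a1 fell (-0.20, adjusted p = 0.0225) and 1 was dim. Col1a1 had means of 11.77 in GPS2KO and 11.97 in WT. At an unadjusted p under 0.05, 1 stromal marker was higher and 3 were lower, beside 8.88% and 11.9% of all tested genes. The mean of the 8 ran from 8.92 to 9.01 on GPS2KO arrays and from 8.89 to 8.98 on WT arrays. Of 9 osteoclast markers, Atp6v0d2 and Ctsk rose (1.01 and 0.47, adjusted p = 0.000194 and 0.00107) and Ocstamp fell (-0.68, adjusted p = 0.000336). Of the 8 macrophage markers 3 rose, Mrc1 (0.49), Mertk (0.24) and Itgam (0.19), at adjusted p = 0.00121, 0.00991 and 0.0279. These are limma values, and the calls of Cd5, Pf4, Ppbp, Dcn, Col1a1 and Itgam each ended without at least 2 of the arrays, left out singly.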

How the data were processed

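The deposited table held log2 intensities, 1 per probe set and array, which the authors made with RMA in the R package oligo, per the submitters' processing notes; no versions are given. That the scale is log2 follows from the range of the values. RMA brings all arrays to one distribution, which hides any change common to most genes, and background left in dim signals compresses their differences. GEO's annotation of the platform, possibly outdated, listed 23099 of 35556 probe sets. Exactly 1 symbol was given for 21218 and several for 1881, and 12457 are unnamed here. Gene numbers of 21185 matched RefSeq (GRCm38.p6). Each gene was read from its probe set of highest mean across the 6 arrays. No source used here gives the build of the array, so RefSeq served for names, gene order and promoter sequences only.

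Groups came from the sample titles. GPS2KO was compared with WT by limma 3.58.1 in R 4.3.3 (lmFit, eBayes, group as the only term), 2-sided, adjusted over 18820 genes. Precision is limited by the number of arrays. Tried alternatives were quantile normalization, median centring, a variance trend, array weights, leaving out dim genes, the mean of all probe sets, the replicate number as a block, and leaving out each array. Deviations of same-numbered arrays from their group means correlated at 0.003, 0.026 and -0.006 in the 3 number pairs, and the labels give no shared origin, so the numbers were not taken to pair samples. Members, lists and tests were chosen with earlier results of these data known. Named were all members, Gps2, up to 4 genes of each pathway list and each marker list that passed by smallest p (where none passed, 1 gene for a pathway list), and genes marked as named after their values were seen. Markers named only as dim or as above the dim limit were also chosen with their values known. Of 134 list entries, those without a probe set of their own symbol were not analysed here.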

Additional observations from a re-analysis of the deposited data

How the results depend on the processing

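Fcgr3 and Trem1 kept their direction and their call under all 13 alternatives, with changes from 0.35 to 0.39 and from 0.40 to 0.48 and adjusted p up to 0.0116 and 0.0338. Trem2, Fcer1g, Tyrobp and Syk stayed on the side that did not pass under all 13. Of the 13, the mean of all probe sets could not change a member's own values, as every member has a single probe set. With 3 arrays a group, leaving out 1 array moved Fcgr2b between 0.18 and 0.22 and ended its call each time, moved Fcgr4 between -0.32 and -0.16, and moved Inpp5d between -0.0018 and 0.04. Inpp5d was -0.0035 after median centring. With a variance trend, 5 members passed, 4 rises and 1 fall, as Fcgr1 (0.13) and Fcgr4 (-0.24) were added. With the model refitted and adjusted on genes that are not dim, Fcgr1 passed (0.13), as 1 of 4 members in all. With the replicate number as a block 2 members passed, Fcgr2b did not (0.20, adjusted p = 0.0862), no other member's call changed, 862 genes passed in all, and 0 of the TREM2 partner list.

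Over all genes 1265 passed. A variance trend gave 2174, leaving out dim genes 1962, and leaving out 1 array between 749 and 842. Median centring gave 460 rises and 1061 falls, in place of 545 and 720. Among the lists, a variance trend gave 7 receptors coupled to Tyrobp or Fcer1g, 9 effectors downstream of Syk, 9 ITIM receptors and 4 TREM2 partners. Leaving out dim genes gave 7 effectors downstream of Syk and 1 TREM cluster gene, and median centring also gave 1 TREM cluster gene. Leaving out 1 array gave 1 to 2 Src and Tec kinases and 0 to 1 TREM2 partners. The cause of these shifts was not tested. Limma with 2 arrays in a group takes their spread from the pooled residuals. The differences of change between pairs of genes kept their sign under each array left out. The mean of all probe sets could not alter them, as each of these genes has a single probe set.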
